A study of Mus musculus with 6 samples.

Results

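The interferon regulatory factor (IRF) genes were followed in wire-injured mouse carotid arteries of wild-type mice and of mice lacking Irf4. All probe sets whose only annotated gene symbol was Irf1, Irf2, Irf3, Irf4, Irf5, Irf7, Irf8 or Irf9 were taken, which gave 14 of 34958 single-symbol probe sets and 8 of 18194 genes. Irf3 had 4 probe sets, Irf4, Irf5 and Irf8 had 2 each, and the other 4 genes had 1 each. WT mice carried no listed allele, and IRF4 KO mice were global knockouts; the sources used here do not give the deleted part of the gene, nor the strain, sex or age of the mice. Mice of both genotypes had the same operation, in which a wire is drawn through the carotid artery to injure its wall, and the vessels were taken 14 days later, so no uninjured artery entered the comparison. Each array held labelled RNA from a pool of 3 to 5 vessels (400 ng of total RNA), and 3 arrays per genotype are described as biological replicates.

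IRF proteins are transcription factors that share an N-terminal DNA-binding domain and read sites with the core GAAA. IRF3, IRF5 and IRF7 are switched on by kinases downstream of pattern sensors and drive interferon genes. IRF9 is the DNA-binding subunit of the complex that carries the type I interferon signal, IRF1 activates and IRF2 mostly restrains interferon-responsive promoters, and IRF4 and IRF8 act in lymphoid and myeloid cells, often with the ETS factor PU.1. Loss of one family member can in principle be met by more of another, and the question put to these arrays was whether any relative of Irf4 was raised or lowered in IRF4 KO arteries.

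The promoter windows of the family are shown because IRF genes are themselves targets of interferon signalling and of one another. Windows run from 250 bases before to 50 bases after a RefSeq start (GRCm38.p6), and all 8 genes matched, with 11 windows in all. They were searched on both strands for an interferon-stimulated response element core (ISRE, GAAANNGAA), an ETS-IRF composite core (GGAANNGAA) and a gamma-activated site (GAS, TTCNNNGAA), a palindrome. Over all 32851 windows, 8.56% held the ISRE core, 8.24% the composite core and 8.30% the GAS core. Among the 11 windows of the family 1, 1 and 3 did. A match is a match of letters only. Matches are in capitals in the stretches below, all on the + strand, and in Irf2 the composite core and the ISRE core overlap by 3 bases.

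Irf1, chr11:53769904-53769952, 1 GAS core: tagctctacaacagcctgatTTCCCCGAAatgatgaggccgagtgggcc

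Irf2, chr8:46739495-46739549, a composite core running into an ISRE core, then a GAS core: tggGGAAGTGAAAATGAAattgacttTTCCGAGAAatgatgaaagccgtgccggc

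Irf8, chr8:120736167-120736233, 2 GAS cores: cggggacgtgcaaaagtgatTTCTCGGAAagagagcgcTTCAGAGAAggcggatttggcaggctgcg

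The start region of Irf4 itself, the targeted gene, held 0 matches to the 3 motifs and is printed whole as chr13:30748983-30749282 on the + strand.

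Irf4: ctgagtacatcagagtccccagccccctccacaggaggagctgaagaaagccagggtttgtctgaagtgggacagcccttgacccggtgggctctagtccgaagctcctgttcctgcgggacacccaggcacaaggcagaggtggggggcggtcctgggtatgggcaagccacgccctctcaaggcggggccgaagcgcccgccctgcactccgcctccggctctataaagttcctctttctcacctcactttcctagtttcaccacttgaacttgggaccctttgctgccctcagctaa

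Values are log2 probe set intensities as the authors deposited them, and differences are IRF4 KO minus WT on that scale. Across the series the array medians lay between 3.94 and 4.12, and the correlation of arrays over all probe sets between 0.951 and 0.990. Arrays WT 3 and IRF4 KO 1 differed most from the rest: poly-A spike-in controls (bacterial RNAs added before labelling, 24 probe sets) averaged 4.93 and 5.14 there and 7.35 to 9.26 elsewhere. In the same 2 arrays the mean of 14 macrophage markers was 7.38 and 8.43, against 4.27 to 5.23 in the others, and 3 probe sets for 18S ribosomal RNA averaged 4.70 and 4.81 against 7.15 to 7.80. The part of these differences in the results was not tested. Differences over the other 4 arrays are given for each of the 8 genes and for each list. The smooth muscle list read at a mean of 9.86 to 10.6 in every array, and all of its 8 genes lay above the olfactory receptor background described next.

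The Irf4 probe sets gave signals inside the range of olfactory receptor probe sets, which were taken as background. Whether arteries express any of those receptors was not tested. Probe set 1421174_at, taken for the gene because it was the brighter one, read 3.90, 3.64 and 3.38 in WT 1 to 3 and 3.27, 3.75 and 3.70 in IRF4 KO 1 to 3. The genotypes overlapped, WT 1 being the highest array and IRF4 KO 1 the lowest. The other, 1421173_at, read 3.62, 3.10 and 3.12 in WT and 3.04, 3.35 and 3.18 in IRF4 KO. As a measure of background, 43 probe sets of olfactory receptor genes (chosen after the values were seen, as receptors of the nose) had a median of 2.85 and a 5th to 95th percentile range of 2.18 to 4.19 over the mean of the 6 arrays. Of these, 7 were brighter than the first Irf4 probe set and 11 brighter than the second, and in 0 of 6 arrays did either exceed the 95th percentile of that array's olfactory receptors.

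Irf4 changed by -0.065 (SE 0.22, 95% interval -0.58 to 0.45, limma adjusted p = 0.999), and the second probe set by -0.088 (SE 0.21, adjusted p = 0.9996 in the fit of all probe sets). Over the 4 arrays other than WT 3 and IRF4 KO 1 it was -0.043. The estimate turned to 0.064 without WT 1 and to 0.087 without IRF4 KO 1. Since both probe sets read at background in WT as well, Irf4 did not check the genotype labels here. Among markers of the cells best known for Irf4, most in each list did not exceed the olfactory receptor background, but some did. Of 9 measured B and plasma cell markers, 2 exceeded the 95th percentile of the olfactory receptors in the mean of the arrays, as did 3 of 7 T cell and 3 of 7 dendritic cell markers. In a whole artery, fewer cells of a type and less RNA per cell cannot be told apart.

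**Figure D1:**
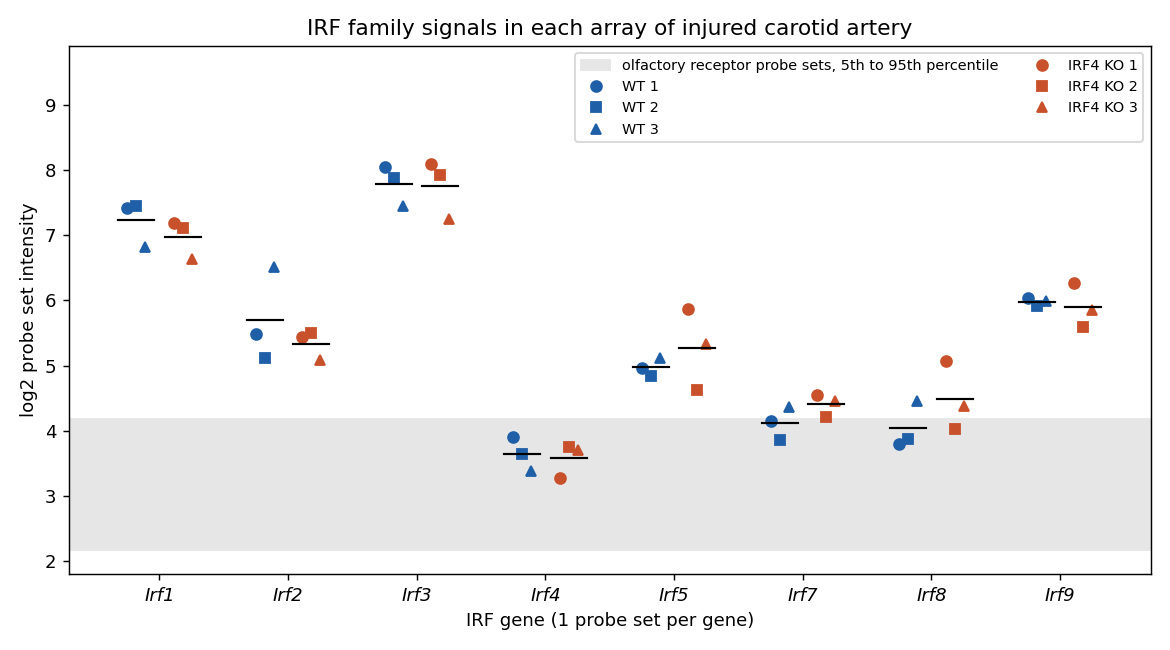
Log2 intensity of the 8 IRF genes (1 probe set each) in every array, WT in blue and IRF4 KO in orange, with a black bar at each genotype mean and a grey band from the 5th to the 95th percentile of 43 olfactory receptor probe sets. Irf4 lies inside the band in all arrays, Irf3 and Irf1 lie far above it, and the genotypes overlap in each gene.

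The family spread over most of the signal range of the arrays. Ranked by the percentile of their signal among the 18194 genes of the same array, averaged over 6 arrays, the order was Irf3 (87.5), Irf1 (80.6), Irf9 (64.9), Irf2 (58.6), Irf5 (53.4), Irf7 (40.9), Irf8 (40.5) and Irf4 (30.6). Irf3 was above Irf1, Irf1 above Irf9 and Irf5 above Irf7 in 6 of 6 arrays. Irf9 was above Irf2 in 5 and Irf2 above Irf5 in 4. Irf7 was above Irf8 in 3 of 6 arrays, so these neighbours had no order, and Irf8 was above Irf4 in 5. Ranges over the arrays were separate only for Irf1 against Irf9 and for Irf5 against Irf7 among neighbours. Because signal also depends on the probes, this is an order of signals and not of transcript amounts.

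How far the probes set that order can be read from genes with several probe sets. The 4 Irf3 probe sets averaged 7.77, 5.51, 4.67 and 3.35 and stood at percentiles from 33.3 to 91.1 among the 34958 single-symbol probe sets. The brightest of them carries the suffix _x_at, Affymetrix's mark for probes that may bind other transcripts, and the Irf2 probe set carries _s_at, used where probes are shared between transcripts. With the mean of all probe sets per gene, Irf3 stood at a percentile of 70.0, below Irf1 (90.4), Irf9 (79.1) and Irf2 (72.6). Irf4 stayed last at 32.5.

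**Figure D2:**
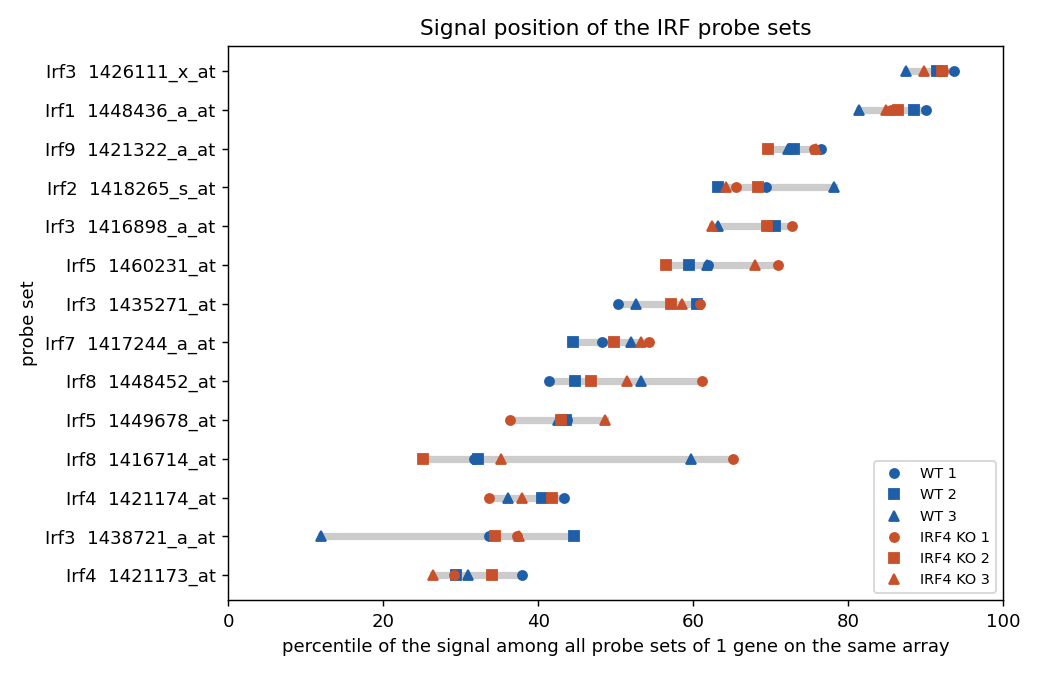
Percentile of each of the 14 IRF probe sets among all single-symbol probe sets of the same array, 1 symbol per array and a grey bar from the lowest to the highest array. Probe sets of Irf3 are found both at the top (91.1 on average) and near the bottom (33.3), and both Irf4 probe sets lie in the lower part (31.3 and 38.9).

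Among the genes that sense or relay interferon, Irf1, an activator induced by interferon gamma, was one of the bright members. It read 7.42, 7.44 and 6.81 in WT and 7.18, 7.11 and 6.63 in IRF4 KO. WT 1 and WT 2 were the highest arrays and IRF4 KO 3 the lowest, but WT 3 lay below IRF4 KO 1 and 2. The difference was -0.25 (SE 0.25, 95% interval -0.83 to 0.33, limma adjusted p = 0.999). Between IRF4 KO 1 and WT 3 it was 0.37, and over the other 4 arrays -0.56. Leaving out 1 array gave -0.078 (without IRF4 KO 3) to -0.46 (without WT 3).

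Irf2, the counterpart of Irf1 on many of the same sites, read 5.49, 5.11 and 6.51 in WT and 5.43, 5.50 and 5.08 in IRF4 KO. WT 3 alone was high, and the remaining arrays lay between 5.08 and 5.50. The mean difference of -0.37 (SE 0.35, adjusted p = 0.999) rested on that array: without WT 3 it was 0.036, and without both WT 3 and IRF4 KO 1 it was -0.012.

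Irf9, which carries the interferon receptor signal to DNA, read 6.04, 5.91 and 5.99 in WT and 6.26, 5.59 and 5.85 in IRF4 KO. WT arrays lay within an SD of 0.064, the smallest in the family, and inside the IRF4 KO range. The difference was -0.078 (SE 0.22, adjusted p = 0.999), -0.25 without WT 3 and IRF4 KO 1, and 0.075 without IRF4 KO 2.

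Irf7, which amplifies type I interferon production and is itself strongly interferon-inducible, had 4.15, 3.86 and 4.36 in WT and 4.54, 4.21 and 4.46 in IRF4 KO. The 2 highest values were IRF4 KO arrays and the 2 lowest WT arrays, with WT 3 above IRF4 KO 2. The difference was 0.28 (SE 0.21, 95% interval -0.19 to 0.76, adjusted p = 0.999), 0.18 for IRF4 KO 1 minus WT 3 and 0.33 in the remaining 4 arrays. Without WT 2 it was 0.15. In 2 of 6 arrays the signal exceeded the 95th percentile of the olfactory receptors, so Irf7 was read close to background.

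Irf3, the constitutive factor activated by TBK1 after nucleic acid sensing, read 8.05, 7.87 and 7.44 in WT and 8.09, 7.93 and 7.25 in IRF4 KO on its brightest probe set. WT 3 and IRF4 KO 3 were the lowest arrays and the genotypes overlapped, and the difference was -0.033 (SE 0.28, adjusted p = 0.999). The other 3 probe sets differed by 0.041, 0.29 and 0.30, the last of them from a WT range of 2.30 to 3.87. The estimate for the brightest probe set turned positive without WT 1 (0.098), WT 2 (0.0071) or IRF4 KO 3 (0.22). It was also positive with quantile normalization (0.067), and -0.37 without WT 3 and IRF4 KO 1, so no direction was read for Irf3.

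Irf5, a mediator of Toll-like receptor signalling in macrophages, gave 4.96, 4.84 and 5.12 in WT and 5.86, 4.62 and 5.33 in IRF4 KO. IRF4 KO held both the highest and the lowest array. The difference was 0.30 (SE 0.31, 95% interval -0.41 to 0.998, adjusted p = 0.999) and became -0.00069 without IRF4 KO 1 and 0.072 without both that array and WT 3. Probe set 1449678_at, at the olfactory receptor level in every array, differed by -0.0071.

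Irf8, the closest relative of Irf4 and a factor of monocyte and dendritic cell development, was read near background in most arrays. Both of its probe sets exceeded the 95th percentile of the olfactory receptors in 2 of 6 arrays, WT 3 and IRF4 KO 1. On 1448452_at Irf8 gave 3.79, 3.88 and 4.45 in WT and 5.07, 4.02 and 4.38 in IRF4 KO. IRF4 KO 1 was highest, WT 3 next, and WT 1 and WT 2 lowest, so the genotypes overlapped. The difference was 0.45 (1.37-fold, SE 0.31, 95% interval -0.26 to 1.16, adjusted p = 0.999). It rested in part on IRF4 KO 1, being 0.16 without IRF4 KO 1 and 0.68 without IRF4 KO 2. Within the pair of IRF4 KO 1 and WT 3 it was 0.62, and over the other 4 arrays 0.36. The second probe set, 1416714_at, read 3.34, 3.23 and 4.95 in WT and 5.40, 2.94 and 3.57 in IRF4 KO. It differed by 0.13 (SE 0.67), with 0.45 in that pair and -0.029 over the other 4 arrays.

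**Figure D3:**
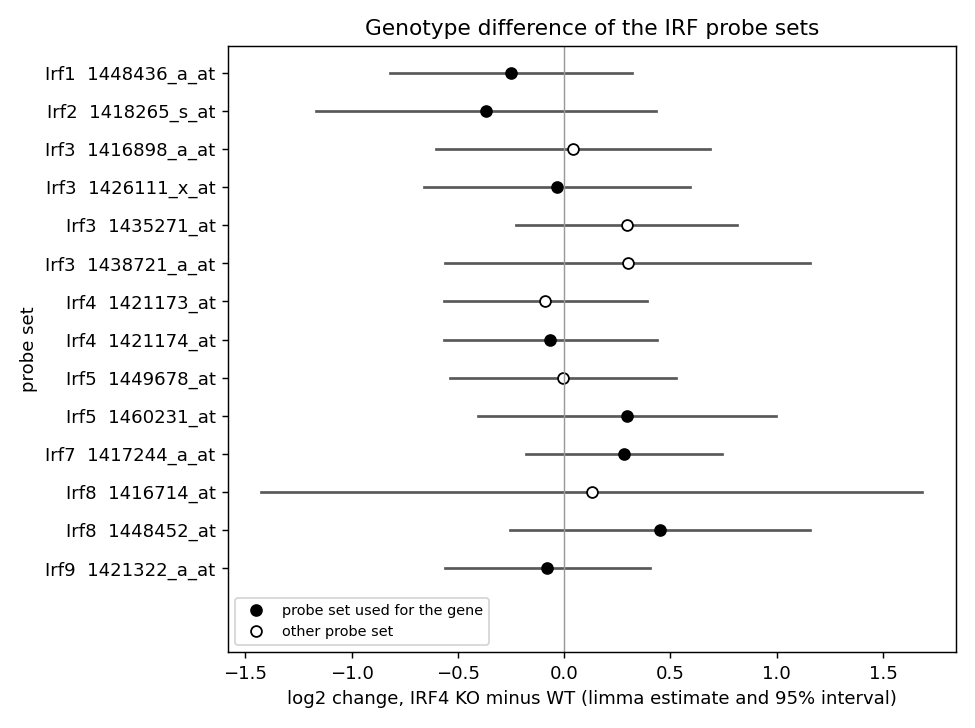
Log2 difference between IRF4 KO and WT for the 14 IRF probe sets with limma's 95% interval, filled points marking the probe set used for each gene. The intervals of all 14 probe sets include 0, and the widest belongs to the Irf8 probe set 1416714_at.

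Seen as a family, no relative of Irf4 was called. At a limma adjusted p under 0.05, 0 of the 8 genes and 0 of the 14 probe sets passed, where 0% of the 18194 genes and 0% of the 34958 probe sets did. At an unadjusted p under 0.05 there were 0 of 8, against 1.49% of all genes, and the smallest p in the family was 0.182 (limma, Irf8). WT and IRF4 KO values overlapped in all 14 probe sets; over all probe sets, 6.24% had no overlap. Of the 8 genes 3 were higher in IRF4 KO (Irf5, Irf7 and Irf8) and 5 lower, against 49.7% higher among all genes. The median difference was -0.049 in the family and -0.0015 over all genes.

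A missed threshold does not show that the levels were alike, so the intervals are given as bounds. Irf4 is left out, since its probe sets read at background. Irf7 and Irf8 are kept, though each exceeded the 95th percentile of the olfactory receptors in only 2 of 6 arrays. RMA compresses differences of dim probe sets, so for these 2 genes the intervals bound the signal and not the transcript amount. On the probe set used, 6 of the 7 relatives had an upper 95% bound below 1 log2 unit, a 2-fold rise, and for Irf8 it was 1.16. The lower bound was above -1 for 6 of 7, and for Irf2 it was -1.16. Among the other probe sets, Irf3 1435271_at (-0.23 to 0.82) and Irf5 1449678_at (-0.54 to 0.52) had narrower intervals. Wider ones reached 1.16 for the dimmest of Irf3 (1438721_a_at) and ran from -1.43 to 1.69 for Irf8 probe set 1416714_at. Irf5 1449678_at and Irf3 1438721_a_at exceeded the 95th percentile of the olfactory receptors in 0 of 6 arrays. Their intervals likewise bound the signal and not the transcript amount. Rises smaller than the upper bounds are inside the intervals. In a simulation of 3 against 3 arrays the test found 19% of the genes given a change of 1 log2 unit, and 66% where the change was 2. Altered genes were drawn only from those at or above the median gene level, and Irf7 and Irf8 lie below it. The noise was independent between arrays and lacked the shared differences of WT 3 and IRF4 KO 1. These rates therefore need not hold for the IRF genes.

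Members of the family were also compared between WT 3 with IRF4 KO 1 and the other 4 arrays. The usual size of this contrast over all genes is not given here. In WT 3 and IRF4 KO 1 the Irf8 probe set 1416714_at averaged 1.91 above the other 4 arrays, the other Irf8 probe set 0.74 and Irf5 0.55, the last mostly through IRF4 KO 1. The dim Irf5 probe set 1449678_at was lower there by 0.36. Irf7 and Irf9 were both higher by 0.28. For Irf9 this came mostly from IRF4 KO 1 (6.26), since WT 3 (5.99) lay below WT 1 (6.04). Irf4 was lower there by 0.42. Irf1 was lower by 0.15 through WT 3 (6.81), while IRF4 KO 1 read 7.18. Irf2 was higher by 0.68 through WT 3 alone, and the difference of Irf3 was -0.0060. Within the macrophage list the receptor gene Csf1r read 9.72 and 10.3 in these arrays and 5.40 to 6.99 elsewhere, and the complement gene C1qa 7.53 and 9.16 against 3.68 to 4.25. In WT the list mean ran from 4.67 to 7.38 and in IRF4 KO from 4.27 to 8.43, and 13 of its 14 genes lay above the olfactory receptor level, with Itgam below it. The mean of the cartilage markers was high in the same arrays, at 7.74 and 7.97 against 3.94 to 4.37. So was the mean of the fibroblast markers, at 9.21 and 9.75 against 7.38 to 7.52. Not every marker followed its list mean. The macrophage gene Fcgr1 read 5.00 in WT 3 and 5.43 in IRF4 KO 1, against 5.22 to 5.74 elsewhere. The cartilage gene Matn1 was lower there, at 2.29 and 2.42 against 2.63 to 2.81. The part of these differences in the IRF values was not tested.

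**Figure D4:**
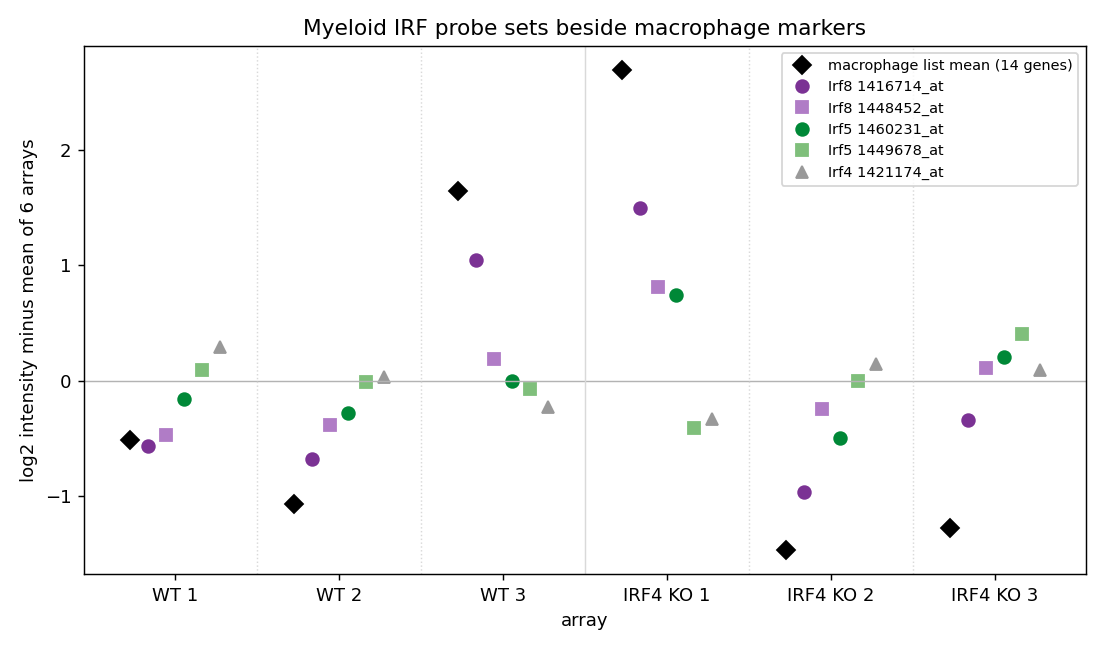
Log2 intensity of the Irf8, Irf5 and Irf4 probe sets and the mean of 14 macrophage markers in each array, each minus its own mean over the 6 arrays. The macrophage mean and the Irf8 probe set 1416714_at are high in WT 3 and IRF4 KO 1, where Irf4 probe set 1421174_at is lowest.

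The genes with the most similar course over the 6 arrays were sought for the 3 members with the largest spread, Irf2, Irf8 and Irf5. Likeness was the root mean square difference of log2 values after each gene's mean was subtracted, among genes at or above the median gene level (4.89). For Irf2 the nearest were Polr2a (0.096), the large subunit of RNA polymerase II, then Sik3, Gm32031, R3hdm2 and Snrnp70 (0.13), a protein of the U1 snRNP. Like Irf2, Polr2a was highest in WT 3, at 7.55 against 5.87 to 6.46. Nearest to Irf8 on probe set 1448452_at were Alcam (0.10), Slc35f5, Kdelr3, Mapkapk3 and Ildr2 (0.15). The other Irf8 probe set, 1416714_at, varied more over the arrays (SD 1.02 against 0.48) and was not used in this search. Irf5 had Trem2 (0.11), a myeloid receptor gene, at the head of its list, followed by Ildr2, Btd, Mapkapk3 and Zbtb38 (0.16). Trem2 was highest in IRF4 KO 1, at 5.71, and lay between 4.66 and 5.02 in the rest. With 6 arrays, 2 of them apart, such likeness is a description of these arrays.

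Genes that act with the IRF proteins were followed in fixed lists, and 0 members of any list passed over all genes in either direction. Of the sensors and adaptors that lead to IRF3, IRF5 and IRF7, 18 of 21 were measured, 11 higher and 7 lower, with a median difference of 0.049. Without WT 3 and IRF4 KO 1, 7 were higher and 11 lower, with a median of -0.045. Ticam1, the adaptor of TLR3 and TLR4, averaged 5.75 ± 0.046 on the WT arrays and 5.42 ± 0.034 on the IRF4 KO arrays (SD, n = 3; difference -0.33, limma adjusted p = 0.999). Tlr4 itself differed by -0.25 and Tbk1, the kinase of IRF3, by -0.31 (-0.10 without those arrays).

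Of the interferon receptors, JAK kinases, STATs and SOCS genes, 11 of 12 were measured, 8 higher and 3 lower, with a median of 0.25 (7 higher and a median of 0.090 without WT 3 and IRF4 KO 1). Usp18, a brake on the type I receptor, averaged 2.88 ± 0.90 on WT arrays and 3.72 ± 0.71 on IRF4 KO arrays. Stat2, the partner of IRF9, read 4.01 ± 0.094 and 4.30 ± 0.063, and the inhibitor Socs1 2.25 ± 0.12 and 2.54 ± 0.13 (n = 3, adjusted p = 0.999 in limma for each). The genotype means of Usp18 and Socs1 were inside the 5th to 95th percentile range of the olfactory receptors. For Stat2 the WT mean was inside that range and the IRF4 KO mean just above its upper end of 4.19.

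Partners that bind DNA beside IRF proteins numbered 14, all measured, 10 higher and 4 lower, with a median of 0.12 (9 higher and a median of 0.028 without WT 3 and IRF4 KO 1). Bcl6, a transcriptional repressor found in germinal centre B cells, read 7.89 ± 0.55 and 7.31 ± 0.60. Its difference of -0.58 came to -1.80 for IRF4 KO 1 minus WT 3 and to 0.037 in the remaining 4 arrays. Batf2 differed by 0.30 and Spib, a relative of PU.1, by 0.15 (limma adjusted p = 0.999 each). For Spib both genotype means, 3.02 and 3.17, lay inside the olfactory receptor range. Regulators of IRF protein activity, 6 of 8 measured, had differences of 0.025 to 0.40 over the 6 arrays, but 4 of 6 were higher without WT 3 and IRF4 KO 1. Def6 differed by 0.40 and, without those arrays, by 0.060, and both its genotype means lay inside the olfactory receptor range. Swap70 differed by 0.20 (0.14 without them), and the ubiquitin ligase gene Trim21 by 0.081 (-0.079 without them). The 3 IRF2-binding protein genes, Irf2bp1, Irf2bp2 and Irf2bpl, were higher by 0.14, 0.15 and 0.26, and by 0.21, 0.54 and 0.46 without WT 3 and IRF4 KO 1.

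Textbook targets of IRF1, IRF8 and the IRF9 complex split evenly, with 10 of 20 measured genes higher and 10 lower and a median of -0.060. Without WT 3 and IRF4 KO 1, 8 were higher and 12 lower, with a median of -0.20. Rsad2, an antiviral enzyme, averaged 4.42 ± 0.15 in WT arrays and 4.98 ± 0.28 in IRF4 KO arrays, and Nlrc5, an activator of MHC class I genes, 4.96 ± 0.36 and 4.25 ± 0.40. Gbp2, a GTPase gene activated by IRF1, read 8.52 ± 1.21 and 7.41 ± 0.32, and its difference of -1.11 came to 0.36 for IRF4 KO 1 minus WT 3 and to -1.84 in the remaining 4 arrays (n = 3, adjusted p = 0.999 in limma for each of these 3 genes). Rsad2 and Nlrc5 were the 2 of 20 with an unadjusted p under 0.05, where 1.49% of all genes had one; without WT 3 and IRF4 KO 1 they differed by 0.73 and -1.02.

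**Figure D5:**
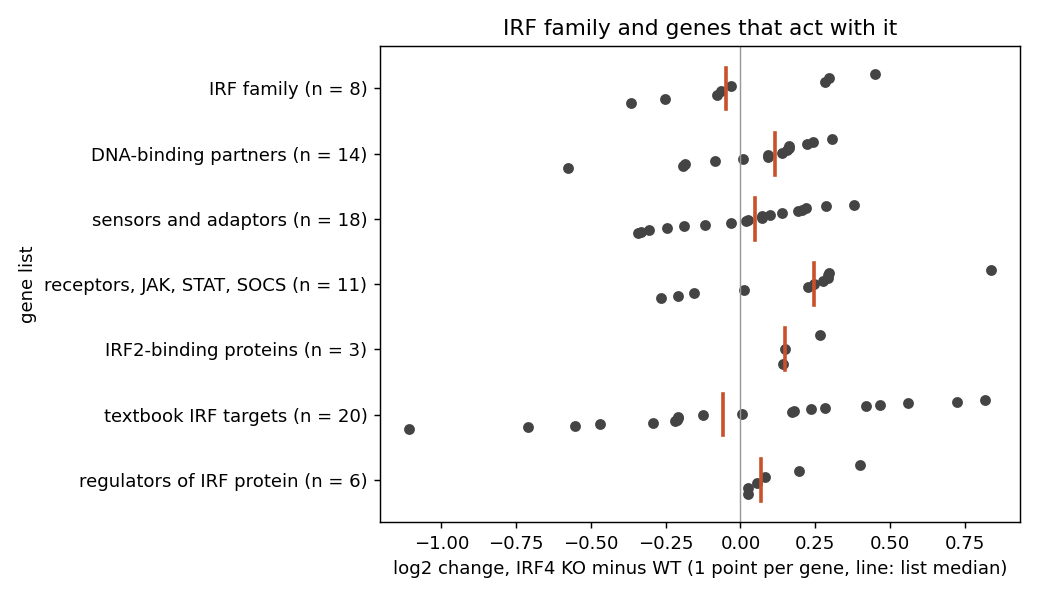
Log2 difference between IRF4 KO and WT for the IRF family and 6 lists of genes that act with it, 1 point per gene and an orange line at each list's median. Medians lie between -0.060 and 0.25, and none of the genes passed the limma threshold over all genes.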

How the data were processed

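The authors deposited log2 intensities, 1 per probe set and array, made with Affymetrix Expression Console and RMA, per the submitters' processing notes, which give no version or setting. RMA compresses differences of dim probe sets. Array medians differed slightly, so the columns did not share 1 distribution. Gene symbols came from GEO's platform annotation (34958 probe sets with 1 symbol, 932 with several, 9211 with none). Each of the 18194 genes was represented by its brightest single-symbol probe set, by the mean of all 6 arrays. The genotypes were tested against each other in R 4.3.3 by limma 3.58.1 (lmFit, then eBayes, two-sided, no covariate, no dim filter), adjusted by Benjamini-Hochberg over all genes, and again over all single-symbol probe sets. Means ± SD are over 3 arrays per genotype, whose number limits the precision; SE and intervals are limma's. The fit was tested on simulated data of the 18194 genes, 100 of them altered by each of the sizes 1 and 2. It called 8 unchanged genes there, and 0 when nothing was changed. Altered genes came from those at or above the median gene level (4.89), with independent normal noise at each gene's SD within genotype.

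The IRF members and all gene lists were chosen with earlier results of these data known. Named genes are the members, the 3 genes with the smallest p in each list (and any that passed), and the 5 nearest patterns of the 3 members with the largest SD; others were named after their values were seen. Promoter sequences are from RefSeq (GRCm38.p6). Alternatives were other scalings, the mean of probe sets, a dim filter, a robust trend, array weights, blocks, and leaving out arrays. Deviations of same-numbered arrays from their genotype means had correlations over genes of -0.52, 0.37 and -0.62 for replicates 1 to 3. Those means include WT 3 and IRF4 KO 1, the arrays most apart. The correlations therefore cannot show whether same-numbered arrays belong together. In the comparison as reported the numbers were not taken as pairs. Some items are not reported here.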

Additional observations from a re-analysis of the deposited data

How the results depend on the processing

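Over 16 alternatives, 125 differences of the 8 genes were recomputed, of which 111 kept their direction and 14 turned. Of these 0 passed the threshold, with limma adjusted p values from 0.710 to 0.999995. Part of the 111 could not have turned. Fitting all probe sets, the dim filter, the robust trend and both blocks leave each difference as reported above. The mean of probe sets does so for genes with 1 probe set. Irf1, Irf7 and Irf8 kept their direction wherever they were fitted (Irf7 and Irf8 could not be fitted with dim genes left out), but 1 array moved each by over 1.5 times: leaving out 1 gave -0.46 to -0.078, 0.15 to 0.40 and 0.16 to 0.68. Irf3 was 0.067 with quantile normalization and 0.15 with the mean of its probe sets. With array weights Irf2 was 0.030, Irf3 0.075, Irf4 0.074 and Irf5 -0.11. Leaving out 1 array gave -0.66 to 0.036 for Irf2, -0.21 to 0.22 for Irf3, -0.19 to 0.087 for Irf4, -0.00069 to 0.62 for Irf5 and -0.26 to 0.075 for Irf9. The number of members higher in IRF4 KO, 3 of 8, was 1 of the 5 genes kept by the dim filter, 5 with array weights and 3 to 5 without 1 array. Over all genes, 0 passed in the comparison as reported, 24 with array weights, 5 without WT 3 and IRF4 KO 1, and 271 at an unadjusted p under 0.05, with 0 IRF members in each. The cause of these shifts was not tested. With the replicate number as a block 0 genes passed and Irf8 differed by 0.45 (adjusted p = 0.999987). Signals near background limit what can be read for Irf4, Irf7 and Irf8.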
